A study of Mus musculus with 10 samples.

Results

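Marginal zone precursor B cells carrying an activated form of the kinase NIK were compared with wild-type precursors, gene by gene, in 4 of the 10 RNA-seq libraries of the series. The 2 libraries of each group were chosen by their titles. Control cells came from C57BL/6 mice whose genotype is given as wild type. NF-kB-activated cells came from C57BL/6 mice of the genotype Rosa-NIKdeltaT3flSTOP x CD19Cre. Both groups were sorted from lymph node as marginal zone precursor B cells and are described as pre-malignant. In the text the groups are called control and NF-kB-activated, and a further group, doubly activated precursors (Rosa-NIKdeltaT3flSTOP x Rosa-Notch2ICN x CD19Cre, 2 libraries), serves as the nearest other group. Age, sex and pooling of animals are not given in the sources used here. Whether replicate libraries are different animals is not stated, and p-values reflect only the spread between them. That spread may be technical in part. As given below, Y-linked and heat shock transcripts differed between the control libraries, and neutrophil transcripts between the NF-kB-activated ones.

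NIK, encoded by Map3k14, is the kinase that starts the noncanonical NF-kB pathway. In resting B cells a complex of TRAF3, TRAF2 and cIAP proteins keeps NIK short-lived. Signals through the BAFF receptor, CD40 or the lymphotoxin beta receptor release it, and NIK then drives processing of the Nfkb2 product p100 to p52, which acts with RelB. The deltaT3 form lacks the TRAF3-binding stretch. A stop cassette in the Rosa locus keeps it silent until Cre, here expressed in B lineage cells, removes the cassette. Marginal zone B cells respond early to blood-borne antigen, and their precursors are defined by surface receptors that include CD21 and CD23.

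The cells had the transcripts that their labels call for. Levels are in CPM, which are estimated counts scaled to a corrected library size, as described under data processing. Map3k14 (chromosome 11, 103219762 to 103267472, GRCm38) was at 103 and 129.6 CPM in the control libraries. In the NF-kB-activated libraries it was at 220.0 and 217 CPM (log2 0.91 ± 0.10, edgeR adjusted p = 5.98e-05). The groups did not overlap, and 1 full-length transcript, Map3k14-201, carried 98.3 and 125 CPM in control and 216 and 214 CPM in NF-kB-activated libraries. Counts do not separate the Rosa allele from the native gene. Nfkb2 rose from 288 and 355 to 619 and 619.8 CPM (log2 0.94 ± 0.09, adjusted p = 2.48e-05), and Traf1, an adaptor of TNF receptors, from 74.7 and 68.4 to 228 and 229 CPM (log2 1.68 ± 0.08, adjusted p = 7.65e-08). The B lineage genes Cd79a, Cd79b, Ms4a1 and Pax5 were abundant in both groups and did not pass the test. The same held for Cr2 (2899 and 1874 against 2431 and 2609 CPM), which encodes CD21, and for Fcer2a (532 and 669 against 421 and 538 CPM), which encodes CD23.

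No Cre is named in the control genotype, so the Cre allele and the NIK allele cannot be told apart for any gene below.

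The control libraries held 16407353 and 18564306 estimated counts, and the NF-kB-activated ones 19267466 and 19247726. Pearson correlations of log2 CPM across genes were 0.989 between the control libraries, 0.994 between the NF-kB-activated ones and 0.974 to 0.978 between the groups; genes are not independent replicates. The libraries differed in 3 further ways that move with single results. Ddx3y, on the Y chromosome, had 59.8 and 0.653 CPM in the controls and 173 and 178 CPM in NF-kB-activated libraries. The Y-linked genes Eif2s3y, Kdm5d and Uty were likewise higher in both NF-kB-activated libraries than in both controls. Uty, for example, had 12.9 and 2.45 against 37.0 and 42.3 CPM. None of these Y-linked genes passed the test (Kdm5d adjusted p = 0.0521), and for each the control libraries differed. Of 562 X-linked genes 37 rose and 35 fell, beside 8.72% and 6.60% of all genes tested. The part of sex in the calls was not tested. The heat shock gene Hspa1a had 234 and 3.05 CPM in control against 0.734 and 6.705 CPM in NF-kB-activated libraries. Transcripts of the neutrophil list summed to 15.3 and 39.4 CPM in control and 565 and 178 CPM in NF-kB-activated libraries, as described at the end.

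Across 15583 genes tested, 1359 rose (8.72% of those tested) and 1029 fell (6.60%), so 15.3% were called in either direction at an adjusted p under 0.05 (edgeR's quasi-likelihood test with Benjamini-Hochberg adjustment). Rises of over 2-fold were more numerous than such falls, with 628 genes (4.03%) against 274 (1.76%). Groups that do not overlap were common, called or not. Both NF-kB-activated libraries lay above both controls in 27.0% of genes tested and below both in 25.6%. The count of calls dropped to 1497 without NF-kB-activated library 1 (5.39% of genes tested rose and 3.76% fell) and to 1435 without library 2 (5.62% and 3.15%). Without control library 1 the shares were 7.17% and 5.62%, and without control library 2 they were 7.79% and 5.66%; counts of list members without a library stand beside these. Because bulk RNA was measured, fewer cells of a type and less RNA per cell cannot be told apart. The 42 gene lists below hold 906 genes, 865 of them tested; a list's count of calls stands beside these shares over all genes tested, and lists carry no test of their own.

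**Figure D1:**
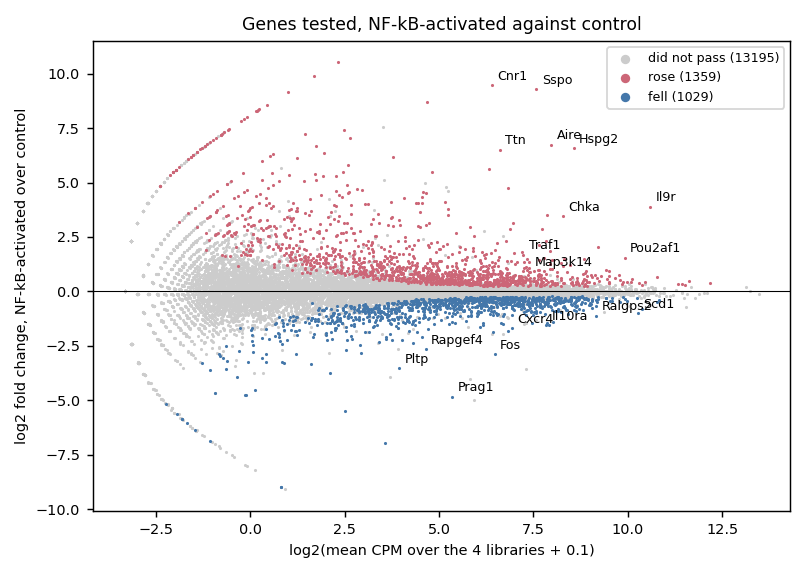
Each point is 1 of the 15583 genes tested, with the log2 of its mean CPM plus 0.1 over the 4 libraries on the x axis and the log2 fold change of NF-kB-activated over control on the y axis. Red points rose (1359), blue points fell (1029) and grey points did not pass the test; Il9r stands apart as a rise among abundant genes.

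Since NF-kB acts at promoters, promoter letters were read for the largest rises by fold change or CPM difference, plus Map3k14, Nfkb2 and Traf1. Windows came from RefSeq promoters (GRCm38.p6, from 250 bases before to 50 after a start site). The loose motif, searched on both strands, was GGG, then any 5 bases, then CC; the strict motif, which every time is also a loose match, was GGG, any pair of bases, then TTTCC. Of 27 genes looked up 24 had an entry, with 31 windows in all. Some genes gave more than 1 window, and those of H2-K1 overlap, so the windows are not independent of each other. The loose motif was found in 25 of the 31 windows (20 genes), and in 50.79% of all 32851 promoters. The strict motif was found in 3 of the 31 windows, all of Nfkb2, and in 1.629% of all promoters. The upstream windows of 250 bases are shown, from a gene of the pathway itself and from a pair of genes among the largest rises in CPM, with loose matches in capitals:

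Nfkb2, chr19:46304487-46304736, plus strand: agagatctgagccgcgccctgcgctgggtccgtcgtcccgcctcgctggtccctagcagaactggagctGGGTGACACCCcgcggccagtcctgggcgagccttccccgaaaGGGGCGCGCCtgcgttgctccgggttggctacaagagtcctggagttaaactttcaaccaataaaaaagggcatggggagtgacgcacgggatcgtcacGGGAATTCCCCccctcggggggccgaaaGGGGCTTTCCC

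Pou2af1, chr9:51213440-51213689, plus strand: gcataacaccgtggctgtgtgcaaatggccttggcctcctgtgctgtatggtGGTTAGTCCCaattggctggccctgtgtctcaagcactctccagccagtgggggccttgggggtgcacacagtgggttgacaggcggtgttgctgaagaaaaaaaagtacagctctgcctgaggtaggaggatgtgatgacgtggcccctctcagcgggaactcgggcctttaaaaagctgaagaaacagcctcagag

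Il9r, chr11:32200280-32200529, minus strand: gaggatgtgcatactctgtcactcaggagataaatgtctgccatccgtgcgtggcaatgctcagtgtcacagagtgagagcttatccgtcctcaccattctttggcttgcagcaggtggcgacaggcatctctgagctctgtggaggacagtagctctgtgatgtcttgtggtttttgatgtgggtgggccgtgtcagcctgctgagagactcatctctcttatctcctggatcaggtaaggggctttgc

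The Nfkb2 window holds 7 loose matches on either strand, some of them overlapping, and its strict match starts 11 bases before the start site. Pou2af1 has 1 loose match, 198 bases before the start. Il9r has none in this window. A match describes letters only, and an absent one says nothing about binding elsewhere.

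Il9r, the receptor chain for interleukin 9, had the largest difference in CPM among the rises ranked. That ranking covered called genes without overlap and left out the gene classes listed under data processing. Il9r went from 197 and 192 CPM in control to 2804 and 2966 CPM in NF-kB-activated libraries (log2 3.89 ± 0.08, edgeR adjusted p = 4.38e-11). Per length, the level went from a mean of 105 to 1645 TPM, and most counts fell on the protein-coding transcript Il9r-205, with 161 and 137 CPM in control and 2062 and 2259 CPM in NF-kB-activated libraries. Doubly activated libraries had 2611 and 2724 CPM, and the difference from NF-kB-activated ones did not pass the test (log2 -0.11, adjusted p = 0.354).

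Pou2af1, the B cell coactivator that binds octamer factors, rose from 475 and 510.3 to 1499 and 1364 CPM (log2 1.54 ± 0.09, adjusted p = 2.17e-07). Lyst, a regulator of lysosome traffic, rose from 241 and 218 to 916 and 973 CPM (log2 2.04 ± 0.14, adjusted p = 3.68e-06). Chka, which makes phosphocholine for membrane lipid, rose from 57.7 and 47.1 to 536 and 608 CPM (log2 3.45 ± 0.11, adjusted p = 2.21e-09). In each of these genes the control libraries lay close together and far below both NF-kB-activated libraries.

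A further set of rises began from low levels. Cnr1, the brain-type cannabinoid receptor, went from 0.246 and 0.218 to 146 and 192 CPM (log2 9.48 ± 0.29, adjusted p = 4.37e-09). Hspg2, which encodes the basement membrane proteoglycan perlecan, went from 7.56 and 8.0 to 784 and 715 CPM (log2 6.59 ± 0.13, adjusted p = 2.78e-11). Aire, known for switching on tissue-restricted genes in the thymic medulla, went from 4.12 and 5.11 to 422 and 576 CPM (log2 6.75 ± 0.18, adjusted p = 2.48e-09). All 3 genes are of kinds usually described in tissues other than B cells, and in all 3 the groups were separated by a wide gap.

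The transcripts behind these rises were not alike. Aire counts were assigned mainly to Aire-206, which is annotated as subject to nonsense-mediated decay, with 3.76 and 4.42 CPM in control and 320.2 and 442 CPM in NF-kB-activated libraries. Coding Aire transcripts were also estimated, the highest being Aire-214 with 0 and 0 CPM in control and 30.6 and 40.1 CPM in NF-kB-activated libraries. Ttn, the giant protein of muscle sarcomeres, went from 2.09 and 2.12 to 197 and 187 CPM (log2 6.51 ± 0.20, adjusted p = 5.97e-09), and Ttn-201, of 81843 bases, carried 1.97 and 1.904 CPM in control and 171 and 165 CPM in NF-kB-activated libraries. Per length that gene is low, with means of 0.1398 and 3.58 TPM against 1.23 and 86.9 TPM for Hspg2. Splitting of counts among transcripts that share exons is an estimate.

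Sspo, which encodes SCO-spondin, had 0.246 and 0.925 CPM in control against 373 and 388 CPM in NF-kB-activated libraries. Klhl29 had no count in either control library and 10.1 and 9.59 CPM in the others, at least 113-fold higher with 3 counts over the control group as the floor. Vipr2, a receptor for vasoactive intestinal peptide, had 0.0615 and 0 CPM in control and 4.88 and 5.66 CPM in NF-kB-activated libraries, a ratio of 182 (exact 95% interval 32.4 to 7242, counting error only). The ubiquitin ligase Mid2 had a ratio of 142 (48.3 to 691), Kctd15 of 189.7 (52.2 to 1572), Rp1l1 of 113 (30.8 to 935) and the extracellular matrix gene Fras1 of 86.8 (29.4 to 424). Igsf3 went from 0.0615 and 0.653 to 24.3 and 29.9 CPM. Thsd7a differed widely between the NF-kB-activated libraries, at 18.1 and 84.9 CPM, and its call was lost without control library 1 (adjusted p = 0.0554) or 2 (0.0589).

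**Figure D2:**
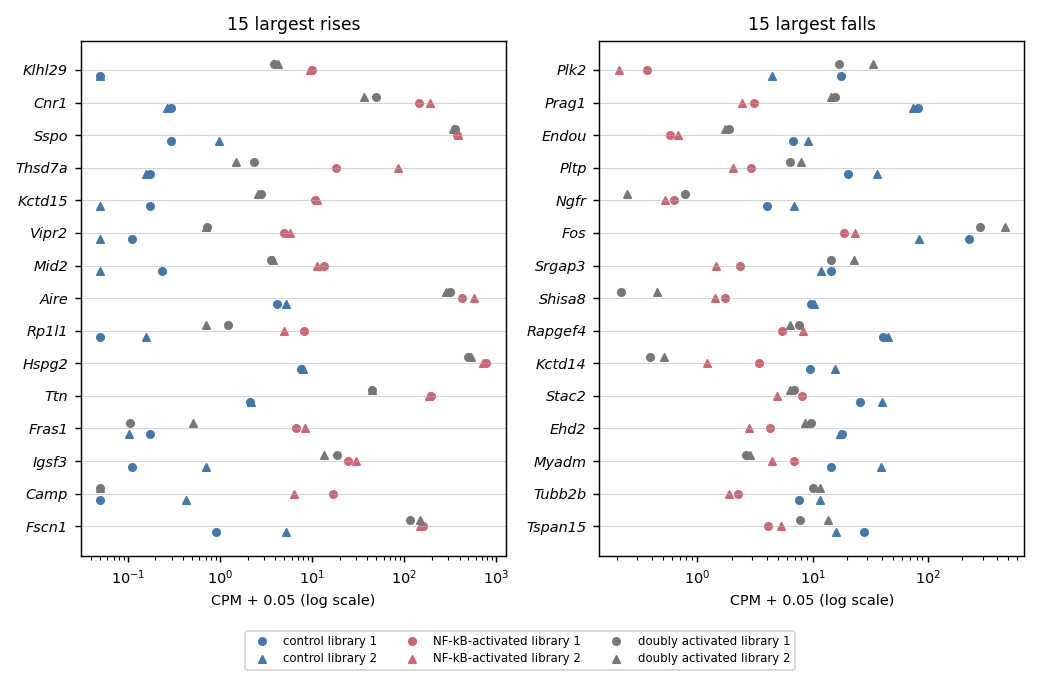
CPM plus 0.05 (log scale) of the 15 largest rises (left) and 15 largest falls (right) in each library; circles are library 1 and triangles library 2 of control (blue), NF-kB-activated (red) and doubly activated (grey) precursors. Blue and red points do not overlap for any gene shown, which the choice of genes fixed, and grey points of Fos lie above both.

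Among the largest falls, Prag1, a pseudokinase, dropped from 81.5 and 74.7 to 3.04 and 2.41 CPM (log2 -4.84 ± 0.26, adjusted p = 2.82e-07). Rapgef4, a cAMP-regulated exchange factor for Rap, dropped from 40.7 and 45.3 to 5.35 and 8.17 CPM (log2 -2.67 ± 0.35, adjusted p = 0.000681). Srgap3, a GTPase-activating protein for Rac, dropped from 14.5 and 11.7 to 2.31 and 1.41 CPM (log2 -2.81 ± 0.31, adjusted p = 7.36e-05). None of these 3 genes was at 0 in the NF-kB-activated libraries. Stac2 fell from 26 and 40.4 to 8.13 and 4.87 CPM, Ehd2, which shapes caveolae, from 18.1 and 17.4 to 4.25 and 2.78 CPM, and the tubulin gene Tubb2b from 7.56 and 11.5 to 2.202 and 1.83 CPM. The tetraspanin Tspan15 fell from 28 and 16 to 4.09 and 5.24 CPM, which did not pass when library 1 of the NF-kB-activated pair was left out (adjusted p = 0.0683). By difference in CPM the leading falls included Scd1, the desaturase that makes monounsaturated fatty acids (1602 and 1696 to 799 and 844 CPM, log2 -1.01 ± 0.07, adjusted p = 2.71e-06), and the surface phosphatase gene Ptprc (2154 and 1915 to 1376 and 1494 CPM). The inhibitory coreceptor gene Cd22 and Ralgps2, a Ral exchange factor, were also among them, at 2074 and 2084 to 1549.6 and 1594 CPM and 803 and 770.3 to 345 and 377 CPM.

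Within the pathway itself, of 15 NF-kB subunits and inhibitors tested, 6 rose and 0 fell, with a median log2 fold change of 0.13 against 0 over all genes. The inhibitor genes Nfkbia (125 and 147 to 273 and 258 CPM, log2 0.97) and Nfkbie (log2 0.82) rose. The ubiquitin editor Tnfaip3 (76.5 and 64.2 to 147 and 146 CPM) rose too, though not without control library 2 (adjusted p = 0.0644). Of the subunit genes Nfkb2 and Relb rose (Relb 84.6 and 105 to 128 and 125 CPM, log2 0.41 ± 0.12, adjusted p = 0.0313), while Rela (log2 -0.03), Nfkb1 (log2 0.05) and Rel (log2 -0.45 ± 0.15, adjusted p = 0.0783) did not pass. The call for Relb was lost without control library 1 (adjusted p = 0.178), NF-kB-activated library 1 (0.149) or NF-kB-activated library 2 (0.118).

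Of 15 noncanonical pathway genes 6 rose and 2 fell. The members of the complex that degrades NIK were among the rises, with Traf3 at log2 0.36, Birc2 at log2 0.39 and Birc3 at log2 0.38; Traf2 did not pass (log2 0.32 ± 0.10, adjusted p = 0.0545). The call for Traf3 was lost without NF-kB-activated library 1 (adjusted p = 0.0597) or NF-kB-activated library 2 (0.0557), and that for Birc2 without NF-kB-activated library 2 (adjusted p = 0.054). For the noncanonical pathway list, rises and falls numbered 5 and 1 without NF-kB-activated library 1, 4 and 1 without NF-kB-activated library 2 and 8 and 1 without control library 2. The receptors went in different directions. Cd40 rose from 120.4 and 109 to 162 and 186 CPM (log2 0.60 ± 0.09, adjusted p = 0.00062), whereas Tnfrsf13c, the BAFF receptor gene, fell from 407 and 444 to 227 and 249.8 CPM (log2 -0.83 ± 0.09, adjusted p = 5.54e-05). Tnfrsf13c was lower again in doubly activated libraries, at 115 and 98.8 CPM (log2 -1.16, adjusted p = 1.41e-05 against NF-kB-activated). Tnfrsf13b, which encodes the BAFF and APRIL receptor TACI, fell from 251 and 236 to 119 and 131 CPM (log2 -0.96 ± 0.08, adjusted p = 6.14e-06).

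TNF family ligands and receptors gave 4 rises and 1 fall among 22 tested. The ligand genes Ltb and Lta, whose products signal through the lymphotoxin beta receptor, rose: Ltb was at 400.1 and 526 against 871 and 949 CPM (log2 0.97 ± 0.12, adjusted p = 0.000215) and Lta at 58.7 and 47.7 against 75.5 and 79.1 CPM. The death receptor gene Fas rose from 5.104 and 5.17 to 24.4 and 33.1 CPM (log2 2.48 ± 0.21, adjusted p = 8.34e-06). Tnfsf4, the OX40 ligand gene, had no control count and 1.99 and 1.205 CPM in NF-kB-activated libraries, at least 18.5-fold higher. For the TNF family list, rises and falls numbered 4 and 2 without control library 1 and 6 and 2 without control library 2. Lta lost its call without control library 2 (adjusted p = 0.0596) or NF-kB-activated library 2 (0.0748).

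Receptors that place B cells within lymphoid tissue moved in both directions, with 7 rises and 6 falls among 22 tested. Besides Cnr1, the scavenging chemokine receptor gene Ackr3 went from 9.53 and 6.64 to 204 and 229.7 CPM (log2 4.75 ± 0.19, adjusted p = 1.5e-07), and the lysophospholipid receptor gene Gpr34 from 4.06 and 2.72 to 41.3 and 42.1 CPM (log2 3.63 ± 0.17, adjusted p = 5.03e-08). Gpr183, the oxysterol receptor that guides B cells to the outer follicle, rose from 64.1 and 81.9 to 121 and 141 CPM (log2 0.84 ± 0.13, adjusted p = 0.000788). The inflammatory chemokine receptor Ccr1 rose from 11.9 and 9.08 to 48.6 and 53.5 CPM and Ccr6 from 109.7 and 104 to 168 and 176 CPM. Both libraries of each group lay together for these rises, and Ccr6 alone of them lost its call, without NF-kB-activated library 2 (adjusted p = 0.051).

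Other members of the list fell. S1pr1, the sphingosine phosphate receptor used to leave lymphoid tissue, dropped from 419 and 373 to 194 and 216 CPM (log2 -0.95 ± 0.09, adjusted p = 1.75e-05), and was at 335 and 364 CPM in doubly activated libraries (log2 0.77, adjusted p = 0.000206). Cxcr4, a retention receptor, fell from 127 and 246 to 63.2 and 51.4 CPM (log2 -1.70 ± 0.30, adjusted p = 0.0127), with the control libraries far apart. S1pr4, Cxcr3, P2ry10 and Cnr2, the other cannabinoid receptor gene, also fell (Cnr2 357 and 311 to 237 and 261 CPM, log2 -0.42). Cxcr5, which directs B cells to follicles, did not pass (413 and 518 against 498 and 487 CPM), nor did Ccr7 (92.1 and 180.3 against 59.2 and 73.6 CPM). Without NF-kB-activated library 1 the list had 6 rises and 2 falls. Without library 2 it had 5 and 4. Calls were lost for Cxcr4 without NF-kB-activated library 1 (adjusted p = 0.0597) or NF-kB-activated library 2 (0.0948), for Cxcr3 without control library 2 (adjusted p = 0.0543) or NF-kB-activated library 1 (0.0895), for S1pr4 without NF-kB-activated library 1 (adjusted p = 0.113) or NF-kB-activated library 2 (0.2) and for Cnr2 without control library 1 (adjusted p = 0.0533) or NF-kB-activated library 1 (0.102).

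**Figure D3:**
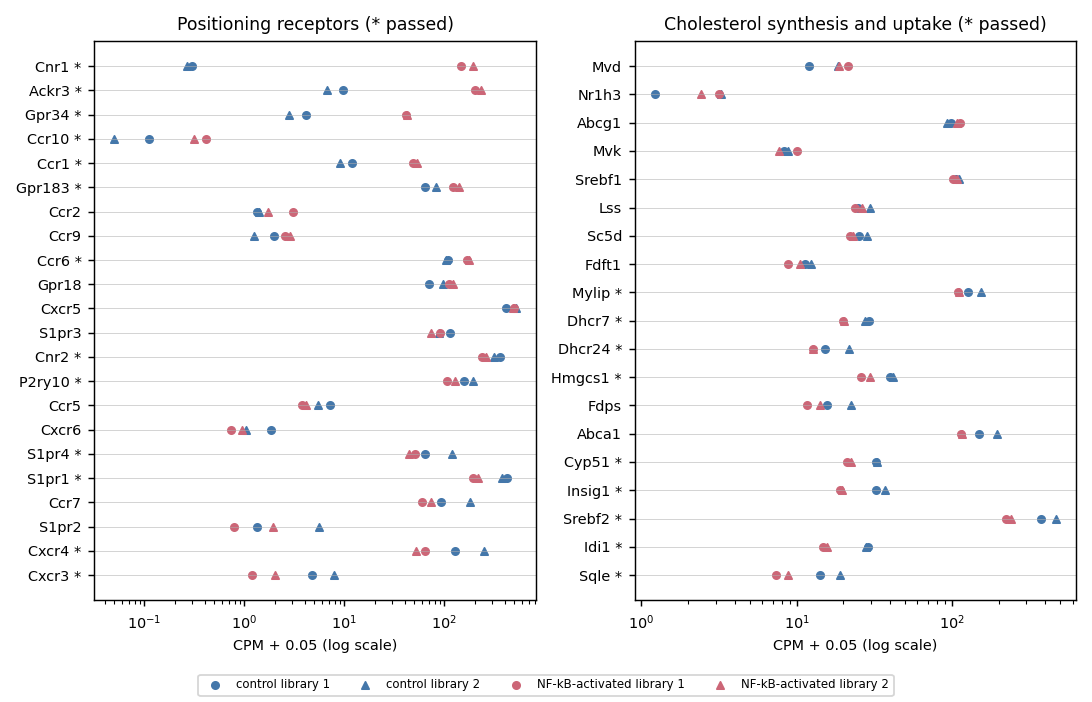
CPM plus 0.05 (log scale) in each control (blue) and NF-kB-activated (red) library for tested members of the positioning receptor list (left) and of the cholesterol list (right, some members not shown), ordered by log2 fold change; a star marks a gene that passed the test. Cnr1 goes from under 1 CPM to over 100 CPM, and the cholesterol genes shown with a star have both red points left of both blue points.

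Among chemokine ligand genes Ccl22 rose from 0.246 and 0.109 to 1.36 and 1.47 CPM, and Cx3cl1 from no count to 0.524 and 0.838 CPM; in all 3 of 12 tested members rose. Ccl3 fell from 2.398 and 0.707 to 0.105 and 0.2095 CPM, a call lost without control library 1 (adjusted p = 0.0752) or NF-kB-activated library 1 (0.081). For the chemokine ligand list, rises and falls numbered 2 and 0 without NF-kB-activated library 1, 2 and 0 without control library 1 and 5 and 1 without control library 2. RGS and G protein regulators, which shorten signals from such receptors, had 4 rises and 1 fall of 20: Rgs12 went from 6.21 and 5.93 to 76 and 62.3 CPM (log2 3.51 ± 0.15, adjusted p = 1.78e-08) and Rgs10 from 26.3 and 18.9 to 6.92 and 7.28 CPM (log2 -1.67 ± 0.15, adjusted p = 1.39e-05). For the RGS list, rises and falls numbered 4 and 3 without control library 1 and 3 and 3 without control library 2. Rgs10 was at 26.2 and 28.4 CPM in doubly activated libraries (log2 1.94, adjusted p = 1.24e-05 against NF-kB-activated).

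Of 25 integrin and adhesion genes 6 rose and 5 fell. The beta 3 integrin gene Itgb3 rose from 31.2 and 43.4 to 130.2 and 150.0 CPM (log2 1.91 ± 0.16, adjusted p = 1.75e-05), and the tetraspanin gene Cd81 from 182 and 162 to 269 and 262 CPM. Pecam1 fell from 300.0 and 308 to 188 and 192 CPM and Icam2 from 46.9 and 61.1 to 28.9 and 31.6 CPM. Itgal and Itgb2, the chains of LFA-1, did not pass (log2 -0.02 and log2 -0.06).

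Cytokine and cytokine receptor genes gave 10 rises and 7 falls of 35. Apart from Il9r, Il12a, a subunit of interleukins 12 and 35, rose from 13.2 and 13.3 to 53.5 and 58.6 CPM (log2 2.08 ± 0.11, adjusted p = 1.46e-07); its partner in interleukin 35, Ebi3, did not pass (log2 0.40 ± 0.13, adjusted p = 0.0564). Il4i1, a secreted amino acid oxidase, rose from 126 and 147 to 377 and 372 CPM, and Il15 from 0.492 and 0.109 to 4.14 and 4.4 CPM. The common gamma chain gene Il2rg, with which the interleukin 9 receptor pairs, rose from 329 and 348 to 439 and 465 CPM (log2 0.42). Socs1, a feedback inhibitor of cytokine signals, rose from 5.97 and 10.009 to 21.9 and 20.8 CPM (log2 1.41 ± 0.22, adjusted p = 0.00155).

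Other receptor chains fell. Il10ra dropped from 318 and 363 to 116 and 116 CPM (log2 -1.55 ± 0.09, adjusted p = 2.3e-07), with each group's libraries within a narrow range. Il5ra dropped from 24.7 and 18.9 to 8.597 and 7.23 CPM (log2 -1.46), and Il17ra from 255 and 279 to 154 and 163 CPM (log2 -0.75). The falls in this list numbered 3 without NF-kB-activated library 1, 4 without library 2 and 3 without control library 2.

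Of 15 genes of class II antigen presentation 9 rose and 2 fell. The thiol reductase Ifi30 rose from 187 and 199.5 to 377 and 347 CPM (log2 0.91 ± 0.09, adjusted p = 1.89e-05), the protease gene Ctss from 426 and 406 to 633 and 663 CPM and the peptide editor H2-DMb2 from 839 and 952 to 1325 and 1306 CPM, while the protease gene Ctsh fell from 303 and 316 to 179.7 and 202 CPM. The chain genes H2-Ab1 (2403 and 2894 to 3610.0 and 3663 CPM) and H2-Aa (2130.4 and 2406 to 2752 and 2979.8 CPM) passed the test, and each call was lost without control library 1 or either NF-kB-activated library. Without NF-kB-activated library 1 or 2, 4 class II genes rose, and without control library 1, 5.

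The class I list had 9 rises and 0 falls of 23, and 4, 4 and 5 rises under the same omissions. Nlrc5, the class I transactivator, rose from 208 and 216 to 296 and 294 CPM (log2 0.48 ± 0.08, adjusted p = 0.00156). H2-Q7 rose from 1312 and 1405 to 2087 and 2186 CPM, though near-identical class I genes such as H2-Q6 and H2-K1 can share reads, which makes their split uncertain. The peptide transporter genes Tap1 (log2 0.07) and Tap2 (log2 -0.09) did not pass.

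Costimulatory and checkpoint genes divided evenly, 5 up and 5 down of 24. The inducible costimulator ligand gene Icosl rose from 375 and 399 to 589 and 699 CPM (log2 0.73 ± 0.09, adjusted p = 0.000112), Pdcd1lg2, which encodes PD-L2, from 9.59 and 9.52 to 20.2 and 21.7 CPM, and Cd274, which encodes PD-L1, from 109.7 and 86.9 to 146 and 154 CPM. Cd80 rose (log2 3.54) and Cd86, which binds the same receptors, fell (log2 -0.75). Cd83, an activation marker, fell from 179 and 188 to 109.8 and 100.4 CPM (log2 -0.80 ± 0.09, adjusted p = 7.4e-05), and Cd276 from 3.44 and 3.48 to 0.681 and 1.26 CPM. For the costimulation list, rises and falls numbered 3 and 5 without NF-kB-activated library 2. Cd274 lost its call without control library 2 (adjusted p = 0.0545) or NF-kB-activated library 2 (0.0645).

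Among 40 B lineage transcription factors 8 rose and 12 fell. Foxp1, a factor needed in B cell development, fell from 495 and 482 to 265 and 269 CPM (log2 -0.87 ± 0.07, adjusted p = 6.56e-06). Klf3 fell from 63.2 and 88.5 to 28.5 and 29.9 CPM (log2 -1.38 ± 0.16, adjusted p = 0.000127), and Mef2c, needed for B cell proliferation and survival, from 467 and 483 to 285 and 306 CPM (log2 -0.68 ± 0.08, adjusted p = 0.000138). Bach2, a repressor of plasma cell fate, fell from 189.8 and 265 to 112 and 130.4 CPM (log2 -0.91 ± 0.21, adjusted p = 0.0262). In all 4 genes the groups were apart, although Bach2 did not pass without control library 2 (adjusted p = 0.0805), NF-kB-activated library 1 (0.151) or NF-kB-activated library 2 (0.0775).

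Prdm1, which drives plasma cell fate and which Bach2 represses, was low and rose from 3.01 and 4.79 to 13.1 and 6.705 CPM (log2 1.33 ± 0.34, adjusted p = 0.0355). Zbtb32 rose from 1.84 and 2.28 to 7.44 and 5.76 CPM (log2 1.67 ± 0.26, adjusted p = 0.00075). Octamer factors went in different directions, with Pou2f1 up (log2 0.54) and Pou2f2 down (log2 -0.51). Prdm1 did not pass without control library 1 (adjusted p = 0.176), control library 2 (0.0636) or NF-kB-activated library 1 (0.0767), nor Pou2f1 without control library 2 (adjusted p = 0.061) or NF-kB-activated library 2 (0.0623). Irf4 (242 and 197 against 195 and 211 CPM), Xbp1 (log2 -0.18) and Ikzf1 (log2 -0.01) did not pass. Counts for the list were 5 up and 8 down without NF-kB-activated library 1, and 8 up and 7 down without library 2.

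B cell identity genes fell more often than they rose, 10 against 1 of 27, while the median fold change was log2 -0.13. Ralgps2 fell (log2 -1.12 ± 0.08, adjusted p = 1.09e-06), as did the inhibitory Fc receptor gene Fcgr2b (238 and 252 to 135 and 127 CPM, log2 -0.90 ± 0.07, adjusted p = 6.32e-06) and the surrogate light chain partner Vpreb3 (31.3 and 33.2 to 10.8 and 13.6 CPM). Cd22 fell by less in proportion (log2 -0.40). Lair1, an inhibitory collagen receptor, was the 1 rise, from 8.61 and 5.93 to 22 and 21.2 CPM. For the B cell identity list, rises and falls numbered 2 and 8 without NF-kB-activated library 2 and 3 and 7 without control library 1.

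Marginal zone genes gave 8 rises and 6 falls of 25, and follicular genes 2 and 3 of 15. Marcks, a substrate of protein kinase C, rose from 196 and 188 to 448 and 416 CPM (log2 1.17 ± 0.08, adjusted p = 7.06e-07), Asb2 from 30.011 and 34.9 to 167 and 137 CPM (log2 2.23 ± 0.15, adjusted p = 3.87e-06) and Gpr55 from 8.67 and 8.43 to 29.7 and 27 CPM (log2 1.73 ± 0.13, adjusted p = 3.94e-06). Cd36, a scavenger receptor of marginal zone cells, fell from 142 and 92.2 to 64.6 and 46.7 CPM, and the antigen-presenting molecule Cd1d1 from 179 and 126 to 102 and 95 CPM. Cd36 and Cd1d1 were higher in doubly activated than in NF-kB-activated libraries (log2 1.62, adjusted p = 0.00262 and log2 0.97, adjusted p = 0.00477), and Gpr55 was lower (log2 -3.19, adjusted p = 5.62e-07). Cd1d1 lost its call without control library 1 (adjusted p = 0.107), NF-kB-activated library 1 (0.1) or NF-kB-activated library 2 (0.16). Notch2, whose signal marginal zone cells need, did not pass (652 and 689.7 against 795 and 772 CPM, log2 0.22 ± 0.08, adjusted p = 0.0966). For the follicular list, rises and falls numbered 2 and 1 without NF-kB-activated library 1. The marginal zone count was 9 up and 3 down without NF-kB-activated library 2, and 11 up and 3 down without control library 1.

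In B cell receptor signalling 4 genes rose and 7 fell of 29. The ubiquitin ligase gene Cblb, a brake on receptor signals, fell from 159.7 and 144 to 62 and 45.2 CPM (log2 -1.50 ± 0.13, adjusted p = 9e-06), and the phosphatase gene Ptpn22 rose from 70.046 and 61.7 to 205 and 139 CPM (log2 1.39 ± 0.17, adjusted p = 0.000408). Btk (log2 -0.43) and Malt1 (log2 -0.45), which link the receptor to canonical NF-kB, fell by less. Malt1 did not pass without control library 1 (adjusted p = 0.0683) or NF-kB-activated library 1 (0.111). Syk and Blnk did not pass. Without NF-kB-activated library 1 the list had 3 rises and 4 falls.

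Toll-like receptor genes had 5 rises and 1 fall of 23, and 2 and 0 without NF-kB-activated library 1 or 1 and 1 without library 2. Tlr12 rose from 3.94 and 5.44 to 8.33 and 11.3 CPM and Tlr9, the receptor for unmethylated CpG DNA, from 162 and 207 to 249.9 and 248.6 CPM. Tlr9 lost its call without control library 1 (adjusted p = 0.167), NF-kB-activated library 1 (0.128) or NF-kB-activated library 2 (0.121). The adaptor Myd88 did not pass (log2 -0.22). Of 30 interferon response genes 5 rose and 3 fell: Stat2 fell from 214 and 216 to 115 and 136 CPM (log2 -0.78 ± 0.08, adjusted p = 5.8e-05), Oas2 from 36.5 and 37.8 to 11.1 and 20.8 CPM, and Ifi44 rose from 2.21 and 1.52 to 6.13 and 12.9 CPM. For the interferon list, rises and falls numbered 5 and 1 without control library 1 and 4 and 1 without control library 2. Oas2 lost its call without control library 1 (adjusted p = 0.0947) or control library 2 (0.107). Stat2 was at 219 and 226 CPM in doubly activated libraries (log2 0.83, adjusted p = 8.5e-05 against NF-kB-activated).

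Of 11 immunoglobulin constant genes Ighm (3986 and 4014 to 5502 and 4812 CPM), Iglc2 and Ighg1 (0.922 and 1.31 to 13.4 and 6.29 CPM, log2 3.13 ± 0.45, adjusted p = 0.000685) rose; the call for Ighm was lost without NF-kB-activated library 1 (adjusted p = 0.187) and that for Iglc2 without control library 2 (adjusted p = 0.0618) or NF-kB-activated library 2 (0.145). In the plasma cell and secretory list 5 of 21 rose and 1 fell, with Mzb1, a chaperone of marginal zone and B1 cells, at 168 and 149 against 251 and 221 CPM and Herpud1, a component of endoplasmic reticulum degradation, at 85.3 and 109 against 159.6 and 166 CPM. For the constant gene list, rises and falls numbered 3 and 1 without control library 1. For the plasma cell list, rises and falls numbered 5 and 0 without NF-kB-activated library 2. Of 19 germinal centre genes 2 rose and 2 fell. For the germinal centre list, rises and falls numbered 2 and 1 without NF-kB-activated library 1, 2 and 1 without NF-kB-activated library 2, 2 and 4 without control library 1 and 4 and 0 without control library 2. Bcl6 did not pass (log2 -0.47).

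Survival and death genes gave 4 rises and 2 falls of 23. Bcl2 rose from 219.9 and 197 to 289 and 288 CPM (log2 0.47 ± 0.08, adjusted p = 0.00159) and Bcl2a1b from 32 and 29.5 to 55.4 and 54.5 CPM, a gene whose near-identical copies Bcl2a1a and Bcl2a1d can take its reads. Bcl2l11, which encodes the death inducer BIM, fell from 49.8 and 54.6 to 31.1 and 30.2 CPM (log2 -0.77 ± 0.09, adjusted p = 0.000134), while Bbc3, which encodes PUMA, rose from 4.0 and 8.38 to 14.4 and 11.1 CPM, a call lost without control library 1 (adjusted p = 0.0714), NF-kB-activated library 1 (0.201) or NF-kB-activated library 2 (0.0584). For the survival and death list, rises and falls numbered 2 and 2 without NF-kB-activated library 1 and 2 and 1 without NF-kB-activated library 2. Bcl2 was lower in doubly activated libraries, at 169 and 169.6 CPM (log2 -0.77, adjusted p = 9.9e-05 against NF-kB-activated).

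Proliferation genes fell, 18 of 26 in DNA replication and 19 of 25 in mitosis. Mitosis falls numbered 18 without NF-kB-activated library 1, 7 without library 2 and 10 without control library 1; replication falls numbered 15, 8 and 11 under the same omissions. Tk1, the thymidine kinase of the salvage pathway, was the 1 replication gene that rose, from 55.7 and 49.2 to 109 and 95.4 CPM (log2 0.96 ± 0.09, adjusted p = 1.69e-05). The inhibitor genes Cdkn2a and Cdkn2b, neighbours on chromosome 4, rose, Cdkn2a from 0 and 0.0544 to 1.57 and 0.786 CPM and Cdkn2b from 0 and 0.163 to 1.42 and 1.36 CPM, with ratios of 40.8 (exact 95% interval 6.97 to 1649) and 16 (5.2 to 80.2). Cdkn1a (log2 -1.0 ± 0.40, adjusted p = 0.123) and Trp53 (log2 -0.04) did not pass, and Cdkn1b fell (log2 -0.33), though not without control library 1 (adjusted p = 0.0805) or NF-kB-activated library 1 (0.148). Of 25 DNA repair genes 7 fell (4 without NF-kB-activated library 1, and 4 with 1 rise without control library 1), led by the Fanconi gene Fanca (66.7 and 50.3 to 22 and 22.7 CPM), which was at 64.9 and 77.7 CPM in doubly activated libraries (log2 1.67, adjusted p = 1.72e-05 against NF-kB-activated).

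Immediate early genes, which cells switch on within minutes of a stimulus, gave 9 falls and 1 rise of 27, with a median log2 fold change of -0.83. Ier2 fell from 96.2 and 80.5 to 40.6 and 40.4 CPM (log2 -1.12 ± 0.14, adjusted p = 0.000161) and the mRNA decay factor Zfp36 from 499 and 425 to 206 and 239 CPM (log2 -1.05 ± 0.15, adjusted p = 0.000759). The phosphatase gene Dusp2 fell from 282 and 207 to 109.8 and 120.0 CPM, while Dusp6 rose from 82 and 76.1 to 119 and 127 CPM. Fos had 229.8 and 84.2 CPM in control against 18.9 and 23.2 CPM in NF-kB-activated libraries (adjusted p = 0.0249), a call lost without either NF-kB-activated library (0.152 and 0.127), and 286 and 470.0 CPM in doubly activated libraries. Control library 1 was the higher control for Fos, Nr4a1 (125 and 85.3 CPM), Klf6 (145 and 106 CPM) and Hspa1a; the part of this difference between the control libraries in the falls was not tested. Nr4a1 did not pass without control library 1 (adjusted p = 0.106), NF-kB-activated library 1 (0.113) or NF-kB-activated library 2 (0.136), nor Klf6 without control library 1 (adjusted p = 0.204), control library 2 (0.0655), NF-kB-activated library 1 (0.218) or NF-kB-activated library 2 (0.146). Falls in the list numbered 5 without either NF-kB-activated library and 6 without control library 1. Of 16 heat shock genes 1 fell and 0 rose. For the heat shock list, rises and falls numbered 0 and 0 without NF-kB-activated library 1, 0 and 3 without NF-kB-activated library 2, 0 and 0 without control library 1 and 0 and 4 without control library 2.

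Of 21 genes of cholesterol synthesis and uptake 11 fell and 0 rose, with a median log2 fold change of -0.52. Srebf2, the factor that switches these genes on when sterol is low, fell from 376 and 470.5 to 222 and 239.6 CPM (log2 -0.87 ± 0.10, adjusted p = 0.000119). Along the synthesis route, Idi1, which interconverts isoprenoid building blocks, fell from 28.8 and 28 to 14.8 and 15.6 CPM (log2 -0.90 ± 0.11, adjusted p = 0.000161) and Sqle, the squalene epoxidase gene, from 14.1 and 18.9 to 7.29 and 8.80 CPM (log2 -1.04 ± 0.21, adjusted p = 0.00515). In each of them both NF-kB-activated libraries lay below both controls, as they did in 25.6% of all genes tested. The call for Sqle was lost without NF-kB-activated library 1.

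Sterol export and fatty acid regulators in the same list did not pass: Abca1 was at 149.7 and 196 against 114 and 116 CPM (log2 -0.59 ± 0.17, adjusted p = 0.0514), Abcg1 at log2 0.21 and Srebf1 at log2 -0.05. Insig1, which holds the sterol sensor in place, fell from 32.4 and 37.3 to 19 and 19.5 CPM and was higher in doubly activated libraries (31.2 and 45.2 CPM, log2 0.99, adjusted p = 0.00158). Srebf2 and Idi1 did not pass the test between those groups (log2 -0.06, adjusted p = 0.781 and log2 -0.09, adjusted p = 0.7). Falls numbered 6 without NF-kB-activated library 1, 8 without library 2 and 9, with 1 rise, without control library 2. The call for Cyp51 was lost with effective transcript lengths as an offset (adjusted p = 0.559).

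Of 20 glycolysis genes 3 rose and 1 fell, with the glucose transporter Slc2a3 at 79 and 70.2 against 117 and 132 CPM (log2 0.73 ± 0.09, adjusted p = 0.000203). Of 24 genes of ribosome biogenesis and other Myc targets 3 fell, and the transferrin receptor Tfrc had the largest of these (82.3 and 66.5 to 40.5 and 39.5 CPM). For the ribosome biogenesis list, rises and falls numbered 0 and 1 without NF-kB-activated library 2 and 1 and 3 without control library 1. For the glycolysis list, rises and falls numbered 2 and 0 without NF-kB-activated library 1, 3 and 0 without NF-kB-activated library 2 and 2 and 0 without control library 2. Respiratory chain genes gave 1 fall of 20, and of 29 cytosolic ribosomal protein genes 0 rose and 0 fell by edgeR, where 3 had an unadjusted p under 0.05 and DESeq2 called 2. The respiratory chain fall was lost when any 1 of the 4 libraries was left out. For the ribosomal protein list, rises and falls numbered 2 and 0 without control library 2.

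Notch pathway genes gave 5 rises and 2 falls of 22. The target gene Heyl was low and rose from 0.4305 and 0.381 to 2.94 and 2.15 CPM (log2 2.63 ± 0.30, adjusted p = 8.93e-05), far under the 23.3 and 25.6 CPM of doubly activated libraries. The ligand gene Dll1 rose from 2.15 and 3.48 to 9.85 and 10.9 CPM, and the target genes Hes1 and Hes5 fell (Hes5 15.5 and 13.2 to 5.71 and 5.08 CPM, log2 -1.41 ± 0.24, adjusted p = 0.00191). For the Notch pathway list, rises and falls numbered 5 and 1 without NF-kB-activated library 1 and 4 and 1 without NF-kB-activated library 2. Hes1 lost its call without control library 1 (adjusted p = 0.147), NF-kB-activated library 1 (0.138) or NF-kB-activated library 2 (0.175). Chromatin regulators gave 4 rises and 7 falls of 26. The DNA methyltransferase gene Dnmt3a rose from 103 and 112 to 215 and 209.7 CPM (log2 0.98 ± 0.08, adjusted p = 3.94e-06), and the histone demethylase genes Kdm6a and Kdm6b fell, Kdm6a from 112 and 121 to 70.033 and 70.5 CPM and Kdm6b from 134 and 150.2 to 78.2 and 61.8 CPM. Kdm6b did not pass without control library 1 (adjusted p = 0.0585), control library 2 (0.1) or NF-kB-activated library 2 (0.0785). Kdm6a is X-linked and escapes inactivation, and the libraries differ in Y-linked transcripts as given above; the part of that difference in its fall was not tested.

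**Figure D4:**
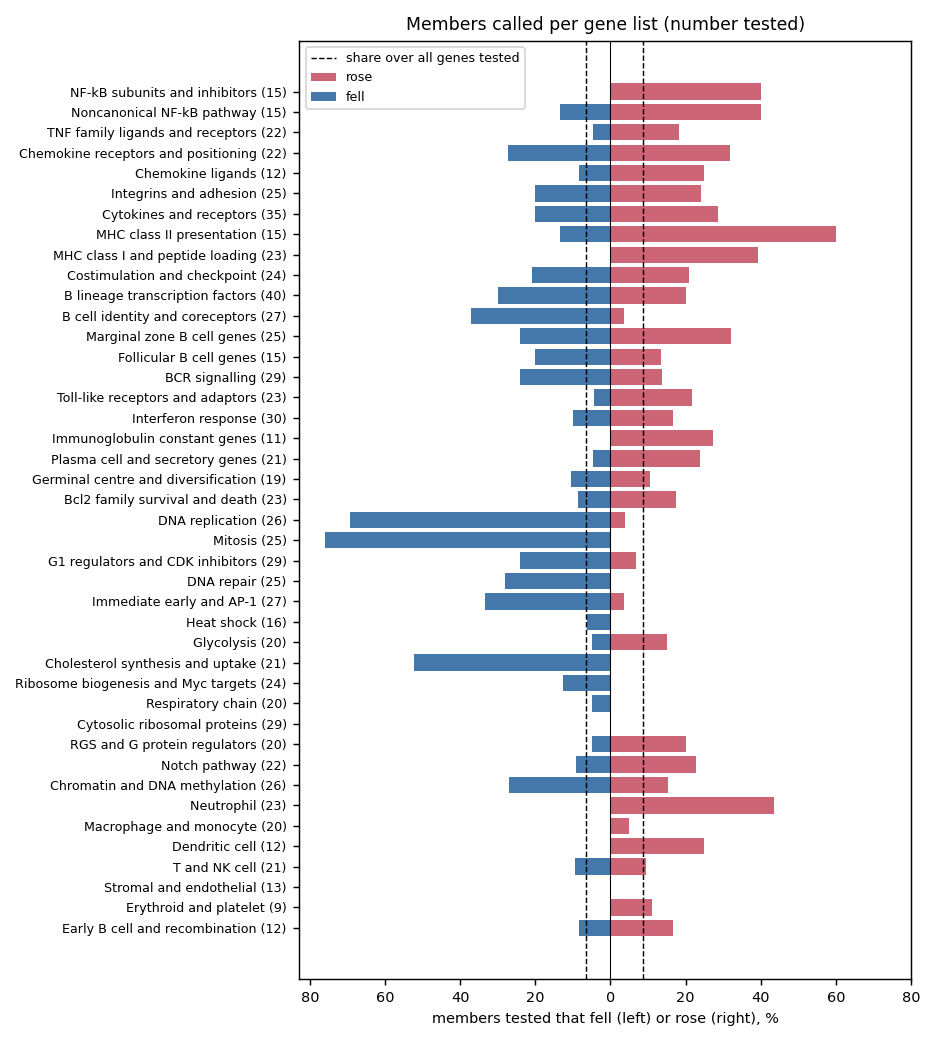
For each gene list (number of members tested in brackets), the share of tested members that rose (right, red) or fell (left, blue), in percent; dashed lines mark the shares over all genes tested, 8.72% and 6.60%. Mitosis, DNA replication and cholesterol genes have the longest blue bars, and class II presentation the longest red bar.

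Transcripts of other cell types were measured for the cells that a sort could carry along. Of 23 neutrophil genes tested 10 rose and 0 fell. The lactoferrin gene Ltf had 0.0615 and 2.28 CPM in control against 86 and 22.8 CPM in NF-kB-activated libraries (log2 5.47 ± 1.26, adjusted p = 0.0432), and the myeloperoxidase gene Mpo had 0.123 and 0.326 against 15.9 and 2.46 CPM (log2 5.28 ± 0.97, adjusted p = 0.00678). Other abundant members did not pass: S100a8 was at 0 and 2.88 against 73.9 and 21.6 CPM (log2 4.99 ± 1.27, adjusted p = 0.0581) and Ngp at 0 and 4.95 against 109 and 31.7 CPM (log2 4.77 ± 1.19, adjusted p = 0.0564). Retnlg had no control count and 5.61 and 2.04 CPM in NF-kB-activated libraries, at least 44.2-fold higher. In each gene library 1 of the NF-kB-activated pair was the highest of the 4. Ltf did not pass without control library 1 (adjusted p = 0.132), control library 2 (0.0812), NF-kB-activated library 1 (0.191) or NF-kB-activated library 2 (0.051), nor Mpo without control library 1 (adjusted p = 0.0897) or control library 2 (0.0709).

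Across the neutrophil list 23 of 24 members had more CPM in library 1 of the NF-kB-activated pair than in its partner, with a median ratio of 3.61, and 4.23 over the 10 that rose. Control library 2 was in turn above control library 1 for S100a8, Ngp and Ltf. Calls numbered 4 without NF-kB-activated library 1 (5.39% of all genes rose in that fit), 10 without library 2 (5.62%), 6 without control library 1 (7.17%) and 12 without control library 2 (7.79%). The list summed to 25.9 and 20.1 CPM in doubly activated libraries. The defining surface marker Ly6g had 0 and 0.109 CPM in control against 0.944 and 0.0524 CPM in NF-kB-activated libraries. Among the largest rises Camp, an antimicrobial peptide gene, belongs to this list, with 0 and 0.381 against 17 and 6.34 CPM. Cd177, a neutrophil surface gene outside the list and chosen after its values were seen, was at 0 and 0.925 against 19 and 4.19 CPM.

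**Figure D5:**
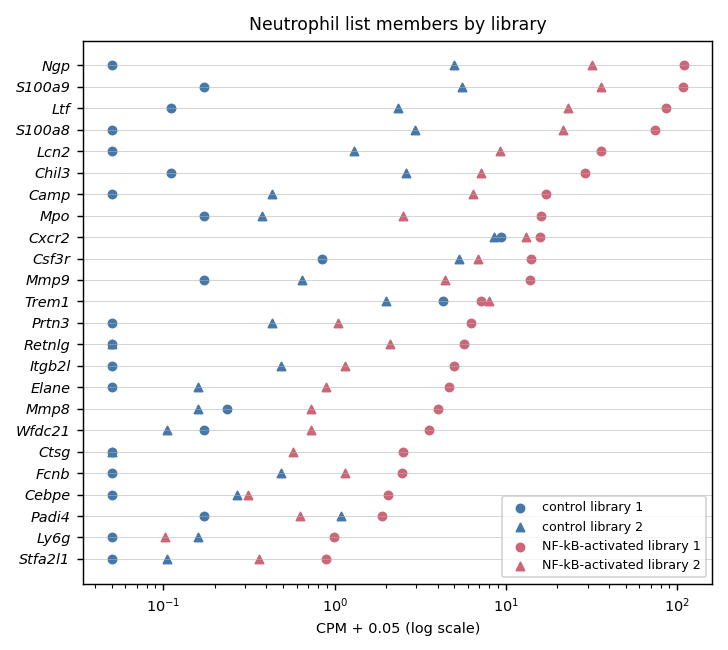
CPM plus 0.05 (log scale) of each neutrophil list member in the control (blue) and NF-kB-activated (red) libraries; circles are library 1 and triangles library 2. The red circle lies right of the red triangle for 23 of 24 members, and the blue triangle lies right of the blue circle for 18.

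The genes that separated the NF-kB-activated libraries from each other were few. With at least 5 CPM in the higher library, 11 of 9902 genes were over 4-fold higher in library 1, of which 3 were in the neutrophil list (Mpo, Prtn3 and Chil3). In the other direction 13 of 9881 were over 4-fold higher in library 2, with 0 from that list; the peptide hormone gene Adm was at 2.097 and 43.2 CPM in libraries 1 and 2, and Hspa1b at 4.72 and 44.4 CPM. Between the control libraries 25 of 9735 genes were over 4-fold higher in library 1 and 40 of 9758 in library 2. Of these, 0 and 2 were in the neutrophil list. Il9r, Hspg2, Aire, Lyst, Chka and Map3k14 differed by far less than 4-fold between the NF-kB-activated libraries.

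The erythroid list summed to 9.04 and 19.0 CPM in control and 89.0 and 37.1 CPM in NF-kB-activated libraries, with 1 rise of 9 tested, Alas2, which did not pass without control library 1 (adjusted p = 0.14), control library 2 (0.0538), NF-kB-activated library 1 (0.144) or NF-kB-activated library 2 (0.0939); the haemoglobin genes, whose copies share reads, did not pass. The macrophage list summed to 72.3 and 254 CPM and to 251 and 181 CPM, with 1 rise of 20, Cx3cr1, and Csf1r was at 11.5 and 56.2 against 41 and 28.8 CPM. T and NK cell genes summed to 245 and 280.2 CPM and to 196 and 223 CPM, with 2 rises and 2 falls of 21, and stromal genes to 25.3 and 25.2 CPM and to 25.9 and 26.3 CPM, with 0 calls of 13 by edgeR (3 at an unadjusted p under 0.05) and 0 by DESeq2. Among defining markers, Clec4f of macrophages, Dcn, Lum and Lyve1 of stroma and endothelium, and Vpreb1 and Igll1 of early B cells had no count in any of the 4 libraries. For the macrophage list, rises and falls numbered 0 and 0 without NF-kB-activated library 1, 0 and 0 without NF-kB-activated library 2, 0 and 1 without control library 1 and 5 and 0 without control library 2. For the erythroid list, rises and falls numbered 0 and 0 without NF-kB-activated library 1, 2 and 0 without NF-kB-activated library 2, 0 and 0 without control library 1 and 0 and 0 without control library 2. For the T and NK cell list, rises and falls numbered 1 and 1 without NF-kB-activated library 1 and 1 and 2 without NF-kB-activated library 2. For the stromal list, rises and falls numbered 0 and 1 without control library 2. The part of these cells in the rises above was not tested.

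Of 12 dendritic cell genes 3 rose, and these were not accompanied by the others. The transcription factor Zbtb46 went from 1.599 and 3.16 to 39.5 and 41.9 CPM (log2 4.08 ± 0.22, adjusted p = 1.75e-07), the actin bundler Fscn1 from 0.861 and 5.22 to 162 and 150.4 CPM (not called with the 4 libraries alone, adjusted p = 0.0664) and the growth factor receptor Flt3 from 3.32 and 5.98 to 16.8 and 11.8 CPM. Xcr1 (log2 -0.08), Clec9a (log2 -0.63), Siglech (log2 -0.41) and Itgax (log2 -0.34) did not pass. Kit, the stem cell factor receptor, went from 0.307 and 1.52 to 15.6 and 15.1 CPM (log2 4.01 ± 0.37, adjusted p = 9.23e-05) in a list of early B cell genes, of which 2 rose and 1 fell of 12; Rag1 (log2 -0.11) and Dntt (log2 0.43) did not pass. For the early B cell list, rises and falls numbered 2 and 2 without NF-kB-activated library 1 and 2 and 2 without control library 2. Prf1, the perforin gene, went from 4.0 and 4.62 to 15 and 20.3 CPM (log2 2.03 ± 0.20, adjusted p = 2.56e-05), while the T cell receptor genes Cd3e (log2 0.06) and Trac (log2 -1.12) and the cytotoxic gene Nkg7 (log2 0.16) did not pass. In these genes the NF-kB-activated libraries differed little from each other, unlike in the neutrophil list.

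The doubly activated precursors carry the NIK allele as well and differ from the NF-kB-activated ones in genotype by the Notch2 allele. Between doubly and NF-kB-activated libraries 13.9% of 15583 genes were called, 1031 higher (6.62%) and 1134 lower (7.28%) in doubly activated cells; without TMM scaling these were 783 and 1521. The calls numbered 725 without doubly activated library 2, 1067 without NF-kB-activated library 1 and 975 without library 2. This comparison uses the same NF-kB-activated libraries as the one above. Hspg2 (493 and 531 CPM, log2 -0.55, adjusted p = 0.0028), Aire (316 and 284 CPM, log2 -0.73, adjusted p = 0.00466), Ttn (45.1 and 44.7 CPM, log2 -2.10, adjusted p = 1.11e-05) and Cnr1 (50.001 and 36.7 CPM, log2 -1.96, adjusted p = 2.64e-05) were lower with both alleles, and all 4 remained above the control libraries. Il9r, Chka (log2 0.12, adjusted p = 0.477), Sspo (log2 -0.13, adjusted p = 0.652) and Lyst (log2 -0.24, adjusted p = 0.274) did not pass. Prag1 (15.7 and 14.4 CPM, log2 2.46, adjusted p = 0.000154) and Srgap3 (14.3 and 22.7 CPM, log2 3.31, adjusted p = 5.21e-05) were higher with both alleles. Zbtb32 (0.947 and 1.05 CPM, log2 -2.72, adjusted p = 9.16e-05) and Ighg1 (1.39 and 0.458 CPM, log2 -3.37, adjusted p = 0.000925) were lower with both alleles, beside 1.84 and 2.28 CPM and 0.922 and 1.31 CPM in the control libraries.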

How the data were processed

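RNA from sorted cells was sequenced in 10 libraries, 4 of which make the comparison described. The authors quantified reads per transcript with kallisto 0.44.0 (mm10), per the submitters' processing notes. Which transcript release they used is not given in the sources. The deposited values are estimated counts, and TPM (abundance scaled by effective transcript length by the authors) stands beside them per the file headers. Transcript identifiers were matched to GENCODE M21, 86031 of 88198 in all, and the unmatched transcripts held 1.33% to 1.38% of counts in the 4 libraries. Estimated counts were summed over 30205 genes and rounded. Genes were kept by edgeR's filterByExpr (minimum count 10, total 15), which left 15583, and scaled by TMM. edgeR 4.0.16 (R 4.3.3) fitted its quasi-likelihood model to all 10 libraries in 5 groups, which gave 5 residual degrees of freedom and a biological coefficient of variation of 0.1205. Adjusted p-values are by Benjamini-Hochberg over all genes tested, with 0.05 as the threshold, and SE is that of the log2 fold change. CPM values are estimated counts scaled to each library's size over the genes kept, multiplied by its TMM factor.

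The comparison, the members and the gene lists were chosen with earlier results of these data known. Genes were named by a rule, whose first parts left out predicted, mitochondrial and pseudogenes, immunoglobulin and T cell receptor genes, Y-linked genes and Xist. These parts took the 15 largest called rises and falls whose higher group averaged 5 CPM or more and whose groups did not overlap. They also took the 10 largest differences of mean CPM in each direction among genes called without overlap. Later parts took the 4 called list members with the smallest p in each list, and the most abundant markers of other cells. List members and comparison genes named beyond that rule were chosen after their values were seen. A fold against a group without counts uses 3 counts over that group as its floor. The script was tested on simulated data. Alternatives were other scaling, filters, sample sets, DESeq2 1.42.0, a length offset and each library left out. The labels give no strandedness, so reads of overlapping or antisense genes cannot be told apart. Some genes are not reported here by name, while list counts include them.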

Additional observations from a re-analysis of the deposited data

How the results depend on the processing

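The count of genes called between NF-kB-activated and control libraries, 2388, ranged from 1435 (without NF-kB-activated library 2) to 2205 (without control library 2) when 1 library was left out. It was 1497 without NF-kB-activated library 1 and 2093 without control library 1. In such fits the lone library of a group is assumed to vary like those of the other groups. Other settings gave 2438 (size factors in place of TMM), 2423 (DESeq2), 1756 (length offset) and 1601 (the 4 libraries alone). The count between doubly and NF-kB-activated libraries, 2165, was 1390 with the length offset. It ranged from 725 (without doubly activated library 2) to 1710 (without library 1), with 1067 and 975 without NF-kB-activated library 1 and 2; the causes were not tested. That comparison has no value in the fit of 4 libraries alone.

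With the replicate number as a block 2100 genes were called in the first comparison and 1764 in the second. The numbers do not pair the samples by any label, and same-numbered control and NF-kB-activated libraries had a correlation of deviations of -0.073 over 10435 genes.

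Of 168 genes that the naming rule gave and that passed the test, 130 passed under every alternative run for them, and none changed direction. Left out of this tally are list members named beyond that rule, and also its markers of other cells that no other part gave. Ltf and Mpo, which lost calls as given above, are among the markers left out. With 2 libraries a group, genes below about 1 CPM rest on few counts, and intervals given for them cover counting error only.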
